A study of Chlamydomonas reinhardtii with 9 samples.

Results

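The hybrid cluster proteins of the green alga Chlamydomonas reinhardtii are encoded by HCP1, HCP2, HCP3 and HCP4, which are 4 of the 17609 gene models in the deposited expression table. They were selected by their gene symbols in that table, and all 4 were found. Hybrid cluster proteins, also called prismane proteins, carry an unusual iron-sulfur-oxygen cluster. In bacteria they are known mainly from cells without oxygen, where they have been studied as reductases of hydroxylamine and nitric oxide. In Chlamydomonas, transcripts of the family are known to accumulate in anoxia, together with those of the hydrogenases and of fermentation enzymes, and separate roles of the single proteins are less well described.

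PolyA RNA was sequenced from 3 strains with 3 cultures each, 9 libraries in all. The wild type was strain B6 (CC-4507), with an intact CEHC1 gene. The mutant was strain B6-F (CC-4509), which carries cehc1-1. The rescued strain was B6-F_resc (CC-5386), obtained by transforming the mutant with wild-type CEHC1. Each genotype is thus represented by 1 strain, and the mutation or the added gene cannot be told apart from any other difference between these strains. All cultures grew with aeration in TAP medium, which contains acetate, in days of 14 h light and 10 h dark, and were sampled 6 h after the light came on. The series asks which transcripts depend on CEHC1, a gene studied for its effect on the copper response regulator CRR1, and the rescued strain shows which changes of the mutant are returned.

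Levels are FPKM, in which the fragments of a gene are divided by its transcript length and by the size of the library, so they can be compared between genes. The FPKM of all genes summed to 970073 to 1108532 in wild-type libraries, 592929 to 645234 in mutant libraries and 888153 to 1002223 in rescued libraries. The mutant libraries also had fewer genes listed at 0, with 1904 to 2005 against 2426 to 2547 in the wild type. The part of these library differences in the HCP results was not tested beyond the rescalings given below. CEHC1 itself (Cre01.g005900_4532) was at 9.10, 7.07 and 9.77 FPKM in wild-type cells, 17.4, 18.0 and 16.2 in mutant cells and 26.2, 25.4 and 27.9 in rescued cells. Its transcript was therefore present in every mutant library, and since the labels do not describe the lesion, this level does not check the genotype.

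All 4 HCP genes were higher in mutant than in wild-type cells and returned to or near the wild-type level in the rescued strain. In every one of them the lowest mutant library lay above the highest library of the other strains. This is a description, and the share of all genes with the same separation was not counted. The members differed in how far they rose and, by their means, in how fully they returned, though the return was not tested between members. HCP1 went from barely detected to the most abundant member, while HCP2, the most abundant member in the wild type, rose least. In the rescued strain HCP1 and HCP3 were not detectably different from the wild type, while HCP4 lay above it by less than the minimum for a call.

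HCP1 (Cre09.g391450_4532) was at 0.0206, 0.0421 and 0.0229 FPKM in wild-type libraries 1, 2 and 3. It was at 14.7, 13.5 and 15.3 FPKM in mutant libraries. In the rescued strain it was listed at 0 in libraries 1 and 2 and at 0.0210 FPKM in library 3. The mutant libraries were close together and far above the rest, and the other 6 libraries were all at or near the lowest value that the table gives for this gene. The wild-type value of library 2 was 2.04 times the lowest value above 0, and the number of fragments behind these values is not given, so no fold change is stated for HCP1. By mean FPKM, 15.4% of all gene models were below HCP1 in wild-type cells and 85.1% in mutant cells.

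HCP3 (Cre09.g393506_4532) was at 0.880, 0.385 and 0.437 FPKM in wild-type cells, with library 1 the highest. It was at 6.23, 6.58 and 8.24 FPKM in mutant cells. The rescued libraries had 0.630, 0.406 and 0.401 FPKM, inside the wild-type range. The ratio of mean FPKM between mutant and wild type was 12.4.

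HCP4 (Cre09.g391650_4532) was at 0.352, 0.315 and 0.302 FPKM in wild-type cells, the narrowest relative spread of the family in that strain. It was at 7.20, 4.65 and 5.75 FPKM in mutant cells, the widest relative spread of the family there, with a coefficient of variation of 21.8% against 4.17% to 15.3% in the others. The rescued libraries had 0.954, 0.521 and 0.814 FPKM and did not overlap with those of the wild type. The ratio of mean FPKM was 18.2 between mutant and wild type and 2.37 between rescued strain and wild type.

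HCP2 (Cre09.g393543_4532) was at 1.52, 0.956 and 0.988 FPKM in wild-type cells, so it was readily measured without the mutation. It was at 4.76, 4.73 and 4.41 FPKM in mutant cells and at 1.77, 1.44 and 1.41 in rescued cells. The rescued and wild-type ranges overlapped. The ratio of mean FPKM between mutant and wild type was 4.01, and between rescued strain and wild type it was 1.33. Within the wild type, library 1 was the highest for HCP2, HCP3 and HCP4, and within the rescued strain library 1 was the highest for the same 3 genes.

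**Figure D1:**
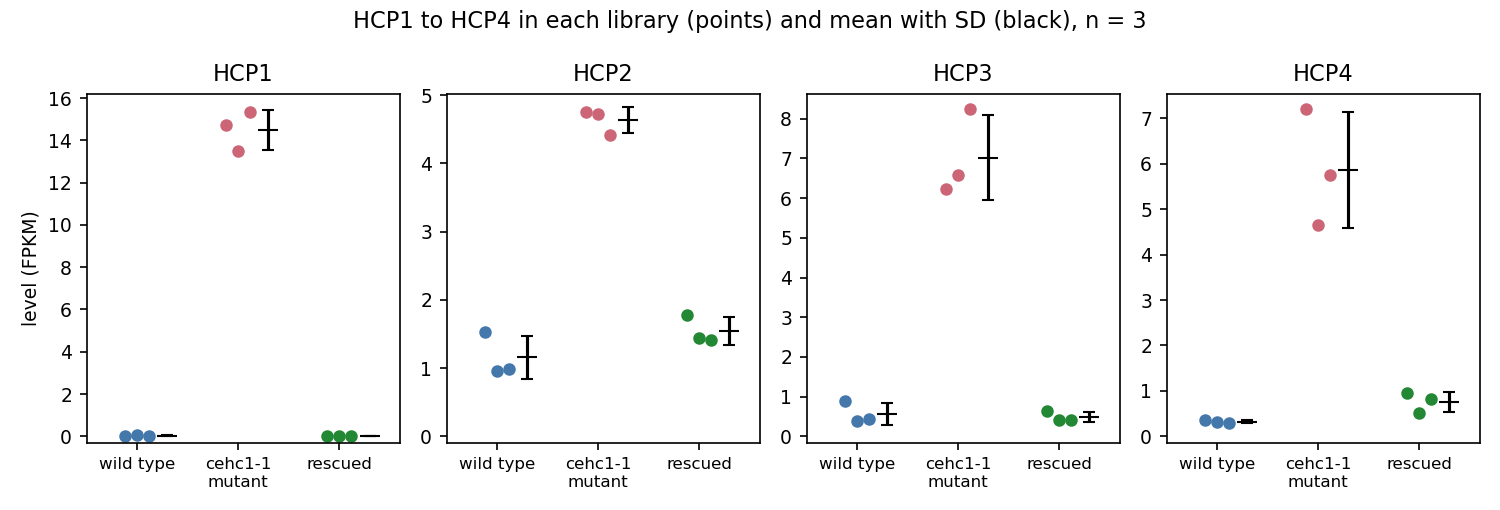
FPKM of HCP1, HCP2, HCP3 and HCP4 on a linear axis, with 1 point per library in replicate order and the mean with SD (n = 3) in black for each strain. The 3 mutant libraries lie above all other libraries for each gene, from 13.5 to 15.3 FPKM for HCP1 and from 4.41 to 4.76 FPKM for HCP2.

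Differences between strains were tested on log2(FPKM + 1) with limma in the 11360 genes whose FPKM averaged at least 1 over all 9 libraries. A call required an adjusted p below 0.05 and a difference of at least 1 on that scale, and adjusted p-values are by Benjamini-Hochberg over all genes tested. All 4 members passed the minimum, but HCP1, HCP3 and HCP4 (3 of 4) did so only through their mutant level. The count of members called is for this reason a description. All 4 were called higher in mutant than in wild-type cells, where 4.60% of tested genes were called higher (523 genes, with 545 called lower). The median difference was 2.36 for the 4 members and -0.13 for all genes tested. Rescaling the libraries by median ratios moved the median of all genes to -0.01, and gave 666 higher and 337 lower genes. Quantile normalization gave 488 higher and 237 lower genes, and the 4 members were called higher under both.

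HCP1 differed between mutant and wild type by 3.91 on the log2(FPKM + 1) scale (SE 0.07, adjusted p 1.2e-10, limma), which was the 14th largest rise among the genes tested. HCP3 and HCP4 had the same difference, 2.36 (SE 0.14, adjusted p 7.6e-07 for both, limma), and ranked 58 and 59. The equal values reflect the scale, because adding 1 FPKM compresses genes with a low base level. With a pseudocount of 0.1 in place of 1, the differences were 3.48 for HCP3 and 3.80 for HCP4, and 6.83 for HCP1. HCP2 differed by 1.39 (SE 0.11, adjusted p 4.3e-06, limma) and ranked 207, and its difference was 0.65 with a pseudocount of 5, below the minimum for a call. Without any minimum FPKM, when 16218 genes were tested, the 4 members were called as well, with adjusted p-values from 2.12e-09 for HCP1 to 1.96e-05 for HCP2 (limma).

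The rescued strain was compared with the mutant, using the same mutant libraries, and with the wild type. All 4 members were called lower in the rescued strain than in the mutant, where 3.77% of tested genes were called lower (428 genes, with 615 called higher). Quantile normalization gave 477 lower and 454 higher genes, and the 4 members were called lower there too. The difference on the log2(FPKM + 1) scale was -3.94 for HCP1 (SE 0.07, adjusted p 9.6e-11, limma), -2.43 for HCP3 (SE 0.14, adjusted p 4.0e-07) and -1.95 for HCP4 (SE 0.14, adjusted p 1.3e-06). For HCP2 it was -1.15 (SE 0.11, adjusted p 9.9e-06, limma). With a pseudocount of 5 the values for HCP2 and HCP4 were -0.56 and -0.91, both short of the minimum for a call.

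Whether the return was complete was addressed by the comparison of rescued strain with wild type. Its differences do not use the mutant libraries, while its errors and p-values do, because the spread was estimated over all 9 libraries. None of the 4 members was called here, while 2.31% of tested genes were. At an adjusted p under 0.05 without a minimum difference there was 1 member, HCP4, against 40.3% of tested genes. HCP2 and HCP4 (2 of 4) had an unadjusted p under 0.05 (limma). At least 40.3% of tested genes passed that weaker threshold too, so this count does not set the members apart. HCP1 differed by -0.031 (95% confidence interval -0.20 to 0.13, adjusted p 0.768, limma). HCP3 differed by -0.074 (interval -0.38 to 0.23, adjusted p 0.694). HCP2 differed by 0.24 (interval 0.005 to 0.484, adjusted p 0.0944), so its own interval just excluded 0 while the value adjusted over all genes missed the threshold. HCP4 was higher in the rescued strain by 0.41 (interval 0.11 to 0.71, adjusted p 0.0355, limma), higher in 3 of 3 rescued libraries than in any wild-type library.

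The HCP4 result depended on the pseudocount, on single libraries and on scaling. The difference of 0.41 became 1.00 (adjusted p 0.00572, limma), just short of the minimum for a call, with a pseudocount of 0.1, and 0.11 (adjusted p 0.219) with one of 5. Its adjusted p was from 0.0187 to 0.112 (limma) when 1 library was left out, and was 0.05 or more in 5 of 9 such fits, those without wild-type library 1, 2 or 3 (0.064, 0.0754 and 0.0852) or rescued library 1 or 3 (0.112 and 0.0925). It was 0.118 after quantile normalization and 0.0517 without a minimum FPKM. For HCP2, leaving out wild-type library 1, the high one, gave a difference of 0.36 with an adjusted p of 0.0149 (limma).

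As a description in FPKM, the share of the mutant's rise that was returned in rescued cells was 100.2% ± 0.0838 for HCP1, 101% ± 2.03 for HCP3, 92.1% ± 3.99 for HCP4 and 88.9% ± 5.74 for HCP2 (SD over 3 rescued libraries). These SD hold the mutant and wild-type means fixed and leave out the spread of those libraries, so they do not test whether members differ in their return. The small SD of HCP1 reflects rescued values at or next to 0. A share above 100 means a rescued mean below the wild-type mean. On this measure the lowest single library was HCP2 in rescued library 1, at 82.3%.

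**Figure D2:**
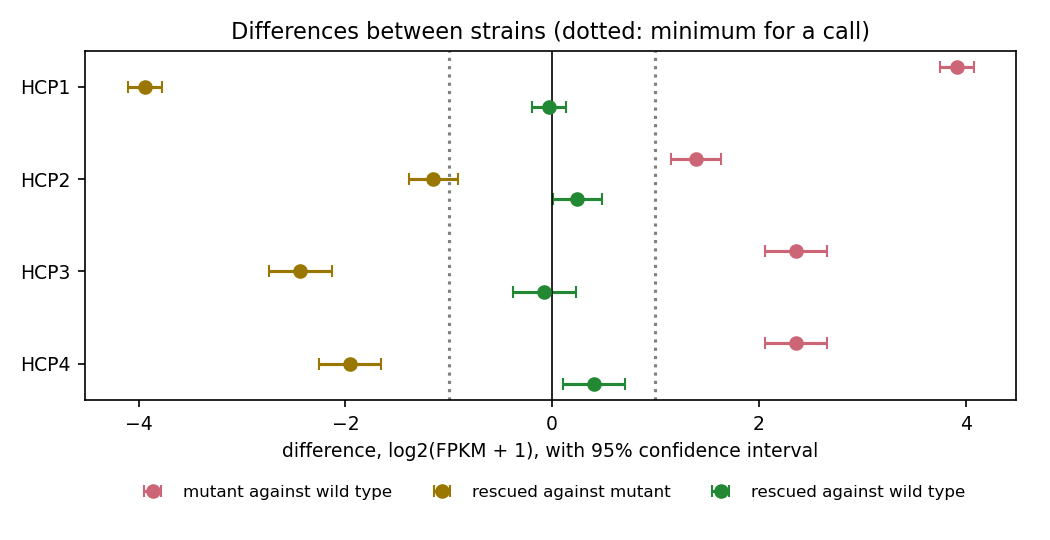
Differences between strains on the log2(FPKM + 1) scale (x axis) for each HCP gene, with the 95% confidence interval from limma and dotted lines at the minimum of 1 in either direction for a call. The rises in the mutant run from 1.39 (HCP2) to 3.91 (HCP1), and the differences of rescued strain from wild type run from -0.074 (HCP3) to 0.41 (HCP4).

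The order of the members by FPKM differed between strains. In each of the 3 wild-type libraries the order from high to low was HCP2, HCP3, HCP4 and HCP1. No pair of neighbours in this order overlapped between libraries, although the lowest HCP3 value, 0.385 FPKM, was near the highest HCP4 value, 0.352. In each of the 3 mutant libraries HCP1 was first, at 13.5 FPKM or more. HCP3 followed and HCP2 had the lowest mean. HCP4 overlapped with both of them, and was second in mutant library 1, last in library 2 and between them in library 3. In each of the 3 rescued libraries the order was HCP2, HCP4, HCP3 and HCP1, so HCP3 and HCP4 were exchanged relative to the wild type, with overlapping ranges of 0.401 to 0.630 and 0.521 to 0.954 FPKM.

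The 4 genes together summed to 2.07 ± 0.607 FPKM in wild-type cells, 32.0 ± 2.27 in mutant cells and 2.79 ± 0.508 in rescued cells (SD, n = 3). HCP1 made up 1.51% ± 0.885 of this sum in wild-type cells, 45.3% ± 0.557 in mutant cells and 0.265% ± 0.459 in rescued cells. The share of HCP2 was 55.9% ± 0.898 in wild-type cells, 14.5% ± 1.49 in mutant cells and 55.6% ± 4.56 in rescued cells. For HCP4 the share was 16.2% ± 3.07 and 18.3% ± 3.22, with overlapping libraries, and in rescued cells it was 27.1% ± 4.57, above both. These are bulk cultures, so more cells with a transcript and more transcript per cell cannot be told apart. The members are related genes, and the sources used here do not give how reads shared between them were assigned.

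**Figure D3:**
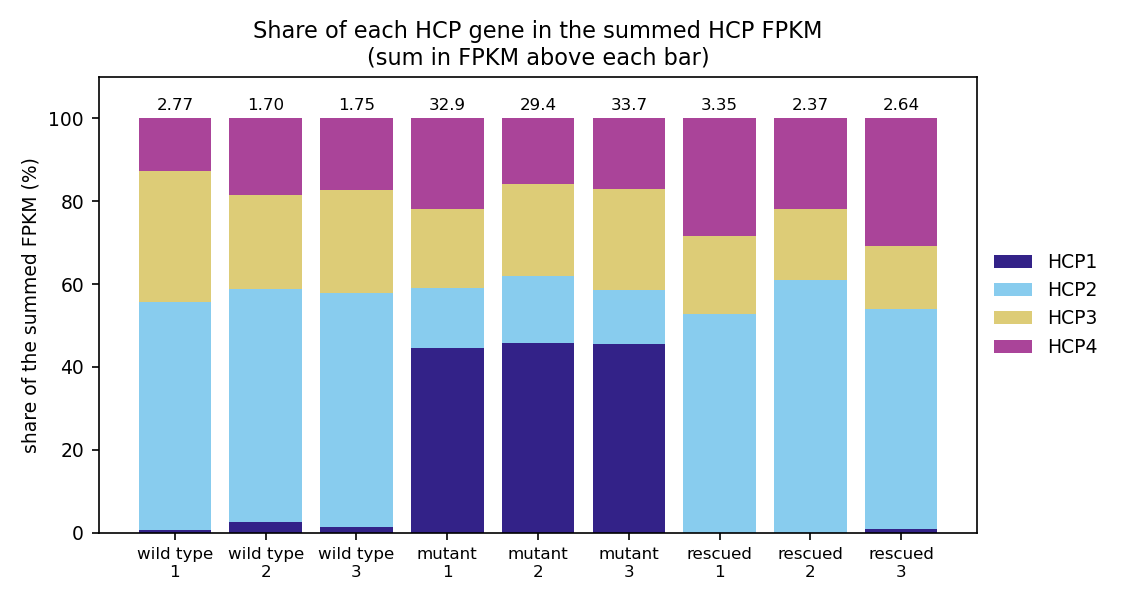
Share of each HCP gene in the summed FPKM of the 4 genes (y axis, percent) for each of the 9 libraries, with the sum in FPKM above each bar. HCP1 takes 44.7% to 45.8% of the sum in the mutant libraries and at most 2.48% elsewhere.

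All 4 genes lie on chromosome 9. The order of genes was read from the RefSeq gene table of assembly Chlamydomonas_reinhardtii_v5.5, matched by locus number. The deposited identifiers carry annotation version 6.1, so no coordinates are given. In that order the family forms 2 groups with 285 genes between them. HCP4 and HCP1 form one, with 3 genes between them, and HCP3 and HCP2 are immediate neighbours in the other. The immediate neighbours HCP3 and HCP2 had ratios of mean FPKM between mutant and wild type of 12.4 and 4.01.

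The genes beside the HCP genes gave a comparison with their surroundings. Of the 7 that flank or lie between members, 6 were analysed here and 4 were tested. Cre09.g391700_4532, next to HCP4 on the side away from HCP1, was the one called in the mutant. It was at 5.36, 6.36 and 5.35 FPKM in wild-type cells, 14.1, 13.8 and 13.0 in mutant cells and 4.37, 3.11 and 3.25 in rescued cells, a difference of 1.13 between mutant and wild type (SE 0.11, adjusted p 1.3e-05, limma). Its rescued libraries were all below the wild-type libraries, whereas those of HCP4 were all above. ATG9, which encodes a membrane protein of autophagy and lies between HCP4 and HCP1, was at 1.28 ± 0.331 FPKM in wild-type cells and 2.47 ± 0.020 in mutant cells. Its difference of 0.61 (adjusted p 0.00262, limma) was below the minimum for a call. It had 2.14 ± 0.588 FPKM in rescued cells, nearer to the mutant (difference -0.16, adjusted p 0.34) than to the wild type (difference 0.45, adjusted p 0.0248, limma). Cre09.g393580_4532, beside HCP2, differed by 0.59 (adjusted p 0.00122), and Cre09.g391400_4532, beside HCP1, by -0.19 (adjusted p 0.0888). The 2 that were not tested were Cre09.g391600_4532 and Cre09.g393469_4532. Cre09.g391600_4532, between HCP4 and HCP1, was at 0.313 ± 0.064 FPKM in wild-type cells, 0.978 ± 0.030 in mutant cells and 0.865 ± 0.291 in rescued cells. Its rescued level thus stayed near that of the mutant. Cre09.g393469_4532, beside HCP3, was at 0.559 ± 0.218, 0.571 ± 0.032 and 0.629 ± 0.146 FPKM in the same order of strains.

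**Figure D4:**
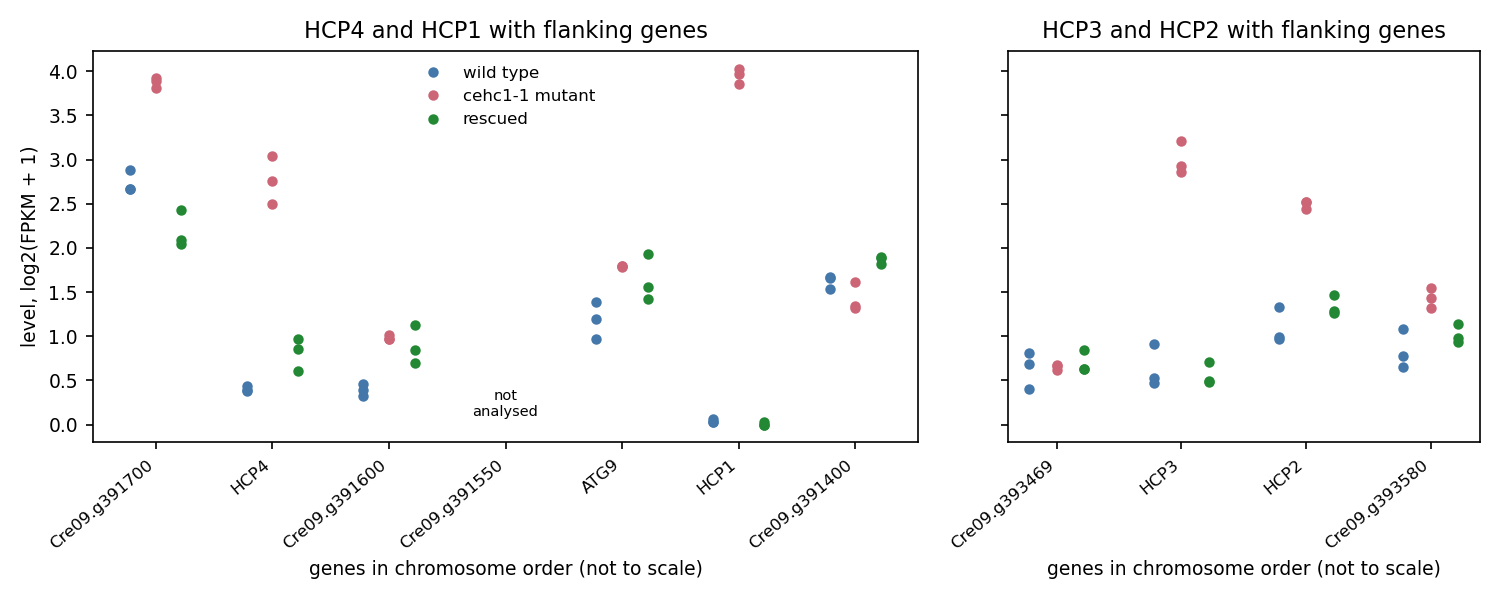
Levels on the log2(FPKM + 1) scale (y axis) of the HCP genes and the genes beside and between them, in the order of the reference gene table (x axis, not to scale), with 1 point per library. The mutant points of HCP1, HCP2, HCP3 and HCP4 stand clear of the other strains, as do those of Cre09.g391700 and Cre09.g393580, and apart from Cre09.g391700 the neighbours differ by 0.61 or less between mutant and wild type where tested.

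Other genes of oxygen-poor metabolism, and genes that could share a substrate or an electron donor with the HCP proteins, were read from lists. Of 13 genes of hydrogen production and fermentation, 12 were tested and 5 were called higher in the mutant, where 4.60% of all tested genes were, with none called lower and 7 not called. The median difference was 0.84, against -0.13 for all genes. The 5 were the hydrogenases HYDA1 (2.98) and HYDA2 (1.66), the hydrogenase maturation factors HYDG1 (5.01) and HYDEF1 (3.59), and the ferredoxin FDX5 (7.67), which is known to accumulate in anoxia. HYDG1 (0.256 FPKM in wild-type and 0.0868 in rescued cells) and HYDEF1 (0.176 and 0.523) passed the minimum only through their mutant level. The count called higher is for this reason a description. The enzymes that make formate, acetate, ethanol and lactate were not called on the deposited scale, but part of them were after rescaling. PAT2, a phosphate acetyltransferase of acetate production, differed by 0.92 as deposited, 1.06 with median ratios and 1.31 after quantile normalization, and was called under both rescalings. Pyruvate formate lyase, PFL1, was at 116 ± 2.75 FPKM in wild-type cells and 193 ± 8.58 in mutant cells, a difference of 0.73, and alcohol dehydrogenase ADH1 differed by 0.38 and lactate dehydrogenase LDH1 by -0.45. PFR1, pyruvate ferredoxin oxidoreductase, was below the minimum and had 0.10 ± 0.015 FPKM in wild-type cells, 1.37 ± 0.229 in mutant cells and 0.295 ± 0.049 in rescued cells. Quantile normalization raised the number called higher in the mutant to 8, by adding PFL1 (1.37), PAT2 and ADH1 (1.01). In the rescued strain 7 of the 12 were called lower than in the mutant, where 3.77% of all tested genes were. These were the 5 called higher in the mutant, with PAT2 (-1.46) and ACK1 (-1.09).

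The list for nitrate, nitrite and nitric oxide was read because bacterial hybrid cluster proteins act on nitrogen oxides. Of its 19 genes 17 were matched and 11 were tested. NRT2A, NRT2B, NAR2, NAR1A, THB1 and THB2 were matched but below the minimum FPKM. The tested genes include GLN1, GLN2, GLN3, GLN4 and GSF1, so the counts and the median are not of genes acting on nitrogen oxides alone. Of the 11, none was called higher in the mutant and 1 was called lower, where 4.80% of all tested genes were called lower. At an adjusted p under 0.05 without the minimum difference, 2 were higher and 8 lower as deposited (limma). After quantile normalization 2 were higher and 4 lower. Of all 11360 genes tested, 2927 were higher and 4598 lower at this threshold as deposited. Falls of this kind were thus common, and whether the list differs from all genes in their share was not tested. The 2 list genes higher as deposited were NIT2 (0.58, adjusted p 0.0002) and CYP55B1 (0.48, adjusted p 0.00445, limma). CYP55B1 had 0.21 with an adjusted p of 0.168 after quantile normalization. There the 2 higher were NIT2 and GLN2. GLN2 changed sign, from -0.49 as deposited (adjusted p 0.000338) to 0.17 after quantile normalization (adjusted p 0.0117, limma), so the direction of such small differences depended on scaling. The 1 called lower was GLN3, a glutamine synthetase, at 2.53 ± 0.164 FPKM in wild-type cells, 0.482 ± 0.107 in mutant cells and 1.84 ± 0.086 in rescued cells (difference of mutant from wild type -1.25, adjusted p 1.7e-06, limma). The median was -0.53 as deposited, -0.39 with median ratios and -0.03 after quantile normalization. CYP55B1, a cytochrome P450 related to fungal nitric oxide reductases, was higher still in rescued cells, at 2.31 ± 0.228 FPKM against 1.68 ± 0.380 in mutant cells. Nitrite reductase, NII1, was at 5.36 ± 0.683 FPKM in wild-type cells and 2.19 ± 0.248 in mutant cells, a difference of -0.99, just short of a call. The rescalings moved NII1 in opposite directions, to -0.88 with median ratios and to -1.08, a call, after quantile normalization. The flavodiiron protein FLVA1 was at 33.8 ± 2.55 FPKM in wild-type cells and 16.9 ± 0.976 in mutant cells. Its difference of -0.96 was not called, and was -0.82 with median ratios and -0.61 after quantile normalization.

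Ferredoxins are small electron carriers and possible donors to the HCP proteins. Of 12 ferredoxin genes 10 were tested, of which 2 were called higher in the mutant and 4 lower, where 4.60% and 4.80% of all tested genes were. The median was -0.80, against -0.13 for all genes. FDX5 and FDX9 were the 2 that rose, FDX9 from 5.45 ± 1.57 to 13.1 ± 0.413 FPKM (difference 1.16, adjusted p 0.00033, limma). FDX1, the main ferredoxin of photosynthesis, FDX3, FDX4 and FDX7 were called lower. Their calls depended on scaling, with 3 called lower after median ratios and 2 after quantile normalization. FDX1 differed by -1.16 as deposited, -1.01 with median ratios and -0.15 after quantile normalization. Quantile normalization gives equal ranks equal values, so it can hide a fall in a gene as abundant as FDX1 (4694 to 11555 FPKM). The value of -0.15 therefore does not decide whether FDX1 fell.

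**Figure D5:**
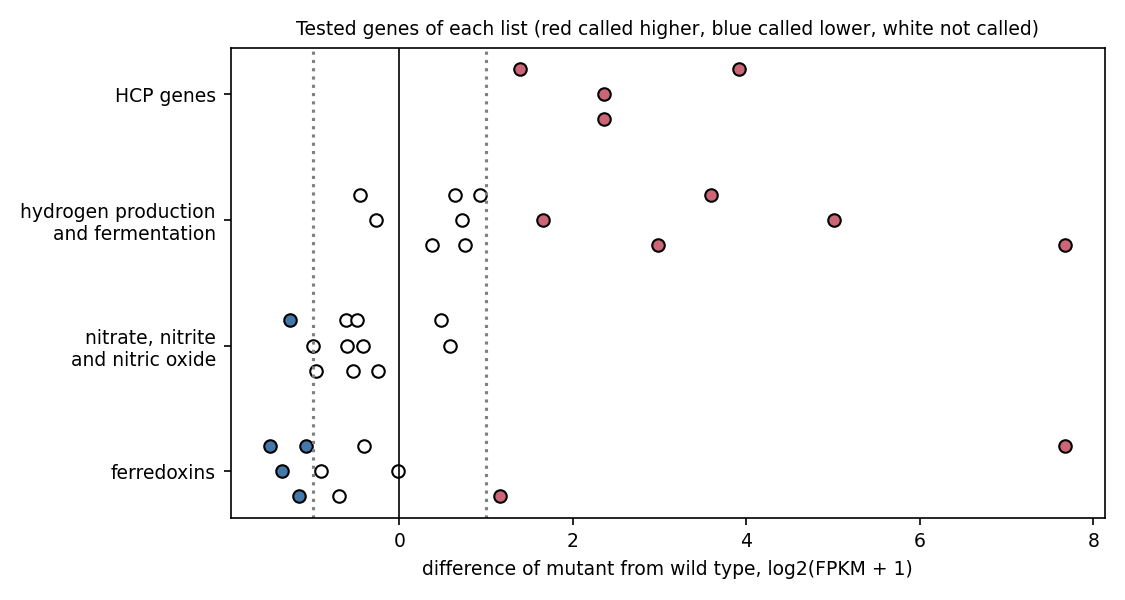
Difference of mutant from wild type on the log2(FPKM + 1) scale (x axis) for the tested genes of each list, 1 point per gene, with red for called higher, blue for called lower and white for not called. The HCP genes lie between 1.39 and 3.91, and the nitrogen list holds no gene called higher.

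The genes with the most similar pattern were ranked by Pearson's r of log2(FPKM + 1) over the 9 libraries, as a description. Since the 3 mutant libraries stand apart, any gene that is high in the mutant and low elsewhere has a high r. Between the HCP genes r was 0.965 (HCP3 with HCP4) to 0.991 (HCP1 with HCP3). Nearest to HCP1 were Cre08.g800918_4532 and Cre03.g179500_4532 (r 0.9999 for both), RSEP1 (0.9998) and CYC6 (0.9997). CYC6 encodes cytochrome c6, which replaces plastocyanin in cells short of copper. The first of these was listed at 0 in all 6 libraries other than those of the mutant, where it had 5.09, 4.77 and 5.40 FPKM, and RSEP1 was listed at 0 in 5 of them.

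Nearest to HCP3 were FAP261 and PFH9 (r 0.994 for both), Cre08.g372200_4532 (0.9935) and the hydrogenase maturation gene HYDG1 (0.9934). PFH9 was at 3.05 ± 0.153 FPKM in wild-type cells, 29.8 ± 3.00 in mutant cells and 2.96 ± 0.379 in rescued cells. Nearest to HCP2 were Cre06.g278145_4532 (r 0.996) and Cre16.g692100_4532 (0.993). FAP413 (0.986), a flagellar associated protein, had rank 5, after further genes without a symbol. FAP413 was at 0.331 ± 0.093 FPKM in wild-type cells, 3.18 ± 0.357 in mutant cells and 0.836 ± 0.134 in rescued cells. Nearest to HCP4 were Cre03.g800414_4532 (r 0.995) and Cre13.g603550_4532 (0.994). The second had 17.5, 10.3 and 12.7 FPKM in mutant libraries 1, 2 and 3, the same order of libraries as HCP4, and 0.467 ± 0.032 FPKM in rescued cells against 0.131 ± 0.051 in wild-type cells.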

How the data were processed

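The 9 libraries were grouped by their titles. The authors deposited FPKM per library and 1 FPKM value per strain; STAR 2.7.10b and Cuffdiff 2.0.2 are named, without roles, per the submitters' processing notes. The sources used here do not give the genome build, the treatment of shared reads or the read depth, so no counting interval is stated. The authors' strain values for the HCP genes lay within 0.232% of the replicate means, which were used instead. FPKM are not counts, so no count model was fitted. Values were transformed to log2(FPKM + 1), genes averaging at least 1 FPKM were kept, and a model of strain means was fitted to all 9 libraries (R 4.3.3, limma 3.58.1, empirical Bayes with a mean-variance trend). Figures were drawn with matplotlib 3.10.9. On simulated data for mutant against wild type, with 200 of 11360 genes changed by a log2 of 2, 99.5% of the changed genes were called and 0 of the others. The simulated noise was normal and independent, without library differences or a floor at 0, and the change was above the minimum of 1. It therefore checks that the fit runs as intended, and does not cover smaller differences or genes near 0. The genes, lists and tests were chosen with earlier results of these data known. Named genes were the 4 members, CEHC1, list members called in the mutant, direct neighbours on the chromosome and, for each member, genes among the 5 of highest r, with at most 2 without a symbol. PFL1, PAT2, ACK1, ADH1, LDH1, PFR1, NIT2, CYP55B1, GLN2, NII1 and FLVA1 were added after their values were seen. The nitrogen list was matched under the table's own spelling, and NIT1 and GSN1 are not analysed here. No sequence of these genes was used here.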

Additional observations from a re-analysis of the deposited data

How the results depend on the processing

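Settings tried were pseudocounts of 0.1 and 5, no minimum FPKM, the rescalings, other moderation and strains compared alone. The replicate block, no minimum difference and leaving out each library were tried as well. Many of these cannot move a difference. Only the pseudocounts, the rescalings and leaving out a library of a compared strain can, and no minimum difference can only relax a call. With this limit, the rises in the mutant and the falls in the rescued strain kept their direction in all 152 values tried. They stayed called in 149. The 3 exceptions came with a pseudocount of 5 (HCP2 0.65 and -0.56, HCP4 -0.91), which compresses differences of low genes by construction. With a minimum mean of 5 FPKM none of the 4 members was tested. Against the wild type, HCP4 in the rescued strain (0.41) counts as called once no minimum difference is required, was 1.00 and 0.11 with pseudocounts of 0.1 and 5, and the HCP3 value, -0.074, turned to 0.0645 without wild-type library 1 (-0.156 to 0.0645 over the libraries left out). The cause was not tested.

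The number of genes called in mutant against wild type, rescued against mutant and rescued against wild type was 1068, 1043 and 262. With a pseudocount of 0.1 the first and last became 1758 and 606, and with one of 5 all became 433, 550 and 75. A minimum mean of 5 FPKM gave 631 and 154 for the first and last, with fewer genes tested, and no minimum difference gave 7525, 6595 and 4577. Leaving out 1 library gave 980 to 1204, 937 to 1184 and 260 to 294. Libraries of the same replicate number deviated together weakly (r from -0.13 to 0.16, over 0.1 in 3 of 9 pairs). For libraries of different numbers r was from -0.26 to 0.19. Such weak values cannot decide whether the numbers pair the libraries, and the main fit did not pair them. With the replicate block the counts were 1068, 1044 and 262, and no HCP call changed. For the rescued strain against wild type, the block moved the adjusted p of HCP4 from 0.0355 to 0.0158 (limma). That of HCP2 moved from 0.0944 to 0.0579. The share of the rise returned, with alternatives chosen after seeing the data, ranged from 84.5% to 92.9% for HCP2 and from 89.9% to 93.9% for HCP4. The read depth is not given, and the HCP1 values outside the mutant are at or next to 0.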
